A study of Mus musculus with 2 samples.

Results

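The nuclear genes of the respiratory chain were taken as the protein-coding genes of the GENCODE M21 annotation on chromosomes 1 to 19 whose symbols begin with Nduf, Uqcr, Cox4 to Cox8 or Atp5, or are Sdha, Sdhb, Sdhc or Sdhd. This rule uses names only and gave 91 of 20807 autosomal protein-coding genes. They comprise 90 symbols, because Atp5o is annotated as 2 loci. Open chromatin was mapped by DNase-seq, which records where DNase I, an enzyme that prefers DNA free of nucleosomes, cuts the genome. The tissue was labelled layer of hippocampus and came from B6CASTF1/J males aged 10 days, a cross between C57BL/6J and CAST/EiJ. The study has 1 group of 2 libraries, numbered 1 and 2 as biological replicates, each from a tissue sample described as holding 3 males. They share 1 donor label, and the labels do not say if the same animals served for both. No second condition is named, so values are given for each library and set beside those of all autosomal protein-coding genes, with no test between conditions.

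The respiratory chain of the inner mitochondrial membrane passes electrons from NADH and succinate to oxygen through complexes I to IV, and complex V, the ATP synthase, uses the proton gradient they build to make ATP. Complexes I, III, IV and V combine subunits encoded in mitochondrial DNA with subunits encoded in the nucleus, and complex II is encoded wholly in the nucleus. Neurons depend heavily on this pathway for the ATP that ion pumping and synaptic transmission consume. Several subunits of complex IV, cytochrome c oxidase, exist as a broadly expressed form and as a form known from heart and skeletal muscle, lung or testis.

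For each library the authors deposited a shorter and a longer list of accessible regions with a height per region, and a list of footprints, which are short stretches protected from cutting inside accessible DNA. The shorter list held 54546 regions in replicate 1 and 74278 in replicate 2, and the footprint lists held 226223 and 345745 entries. A gene is called open (otherwise closed) where a region of the shorter list lies within 1000 bp of any of its annotated starts, and its height is that of the highest such region. All 4 neuronal markers examined (Rbfox3, Snap25, Syt1 and Map2) were open in both libraries, as were 3 of 4 markers of excitatory hippocampal neurons, with Slc17a7 open in replicate 2 alone. None of 5 testis markers and neither liver marker (Alb and Apoa1) was open in either library, and of 2 brown fat markers Ucp1 was closed and Cidea open in both, at 0.660 and 0.978. Of the other cell types, 3 and 2 of 4 astrocyte markers and 0 and 2 of 3 microglial markers were open in replicates 1 and 2. Neither endothelial marker was open in either library. In the longer lists all 4 astrocyte markers, 1 microglial marker and 1 endothelial marker were open in both libraries. The astrocyte marker Gfap had 3.00 and 4.24, above each of the 4 neuronal markers in both libraries. Read numbers are unknown here, so the counting error of a single height could not be estimated.

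Nearly all respiratory chain genes had an accessible promoter in the hippocampus. In replicate 1, 84 of 91 were open, against 60.8% of all autosomal protein-coding genes, and in replicate 2 again 84, against 65.3%. These were the same 84 genes in both libraries (92.3%), against 60.5% of all genes open in both. None of the 91 members was open in 1 library alone. Such genes were a small share of all 20807 genes too, with 71 open in replicate 1 alone and 1003 in replicate 2 alone. In the longer lists the count was 84 as well, against 66.1% of all genes in replicate 1, 69.7% in replicate 2 and 65.7% in both, and 29.8% of all genes were open in neither. Complexes were assigned by symbol, which places Ndufa4 and its relative Ndufa4l2 under complex I. By complex, 35 of 36 genes of complex I, 4 of 4 of complex II, 8 of 8 of complex III, 12 of 17 of complex IV and 16 of 17 of complex V were open in both libraries. All 9 genes grouped here by symbol as assembly factors (8 Ndufaf genes and Atp5s, which carries an ATP synthase name) were open too.

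The 7 genes without a region, 7.69% of the members against 34.3% of all genes open in neither library, were Cox4i2, Cox6a2, Cox7b2, Cox8b, Cox8c, Ndufa4l2 and the second Atp5o locus. Of these, 6 are the less broadly expressed relatives of other subunits. The per-base false discovery rates that the authors deposited listed no base within 1000 bp of a start of any of the 7 in either library. These rates come from the same libraries as the regions and are not separate evidence. The second Atp5o locus (ENSMUSG00000116933, chr16:91684398-91926982) is a long transcript that begins inside the body of Atp5o, and its nearest region, 4519 bp away in both libraries, is the Atp5o promoter itself, with heights of 2.62 and 3.02. For Cox6a2 the nearest region lay 1894 bp away in replicate 1 and 1914 bp in replicate 2, with heights of 1.19 and 1.47. For Ndufa4l2 it lay 1847 and 1887 bp away, with heights of 4.01 and 6.41, and for Cox8b 2895 bp away in both, with 1.78 and 3.27. None of these 3 regions lay within 1000 bp of the start of any other annotated gene. Cox4i2 and Cox7b2 had no region within 11433 and 23611 bp, and Cox8c none within 9036 bp.

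**Figure D1:**
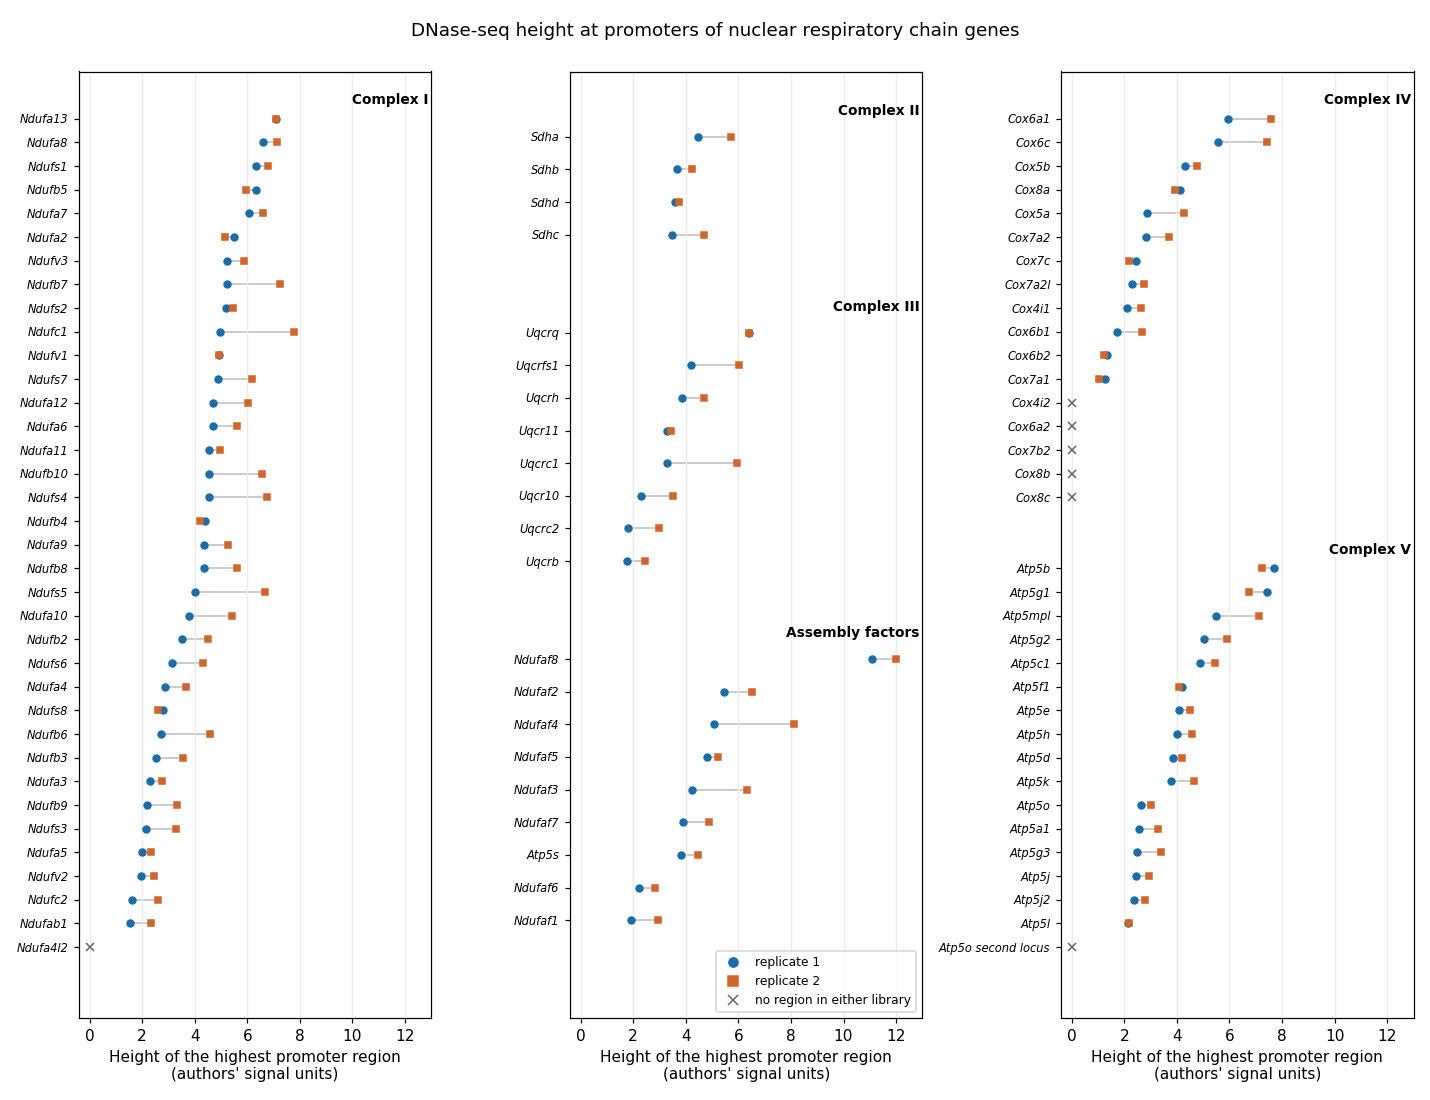
Height of the highest promoter region (horizontal axis, the authors' signal units) for each of the 91 loci, grouped by complex, with circles for replicate 1 and squares for replicate 2. Crosses at the left edge mark the 7 loci without a region, 5 of them in complex IV, and stand for no call, not for a measured height of 0.

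Respiratory chain promoters were also higher than most open promoters. The 84 open members had a median height of 3.88 in the first library and 4.63 in the second (4.25 ± 0.527 as mean and SD, n = 2), against 2.65 and 3.23 over all open autosomal genes. In replicate 1, 59 of 84 lay above the median of all open genes, and in replicate 2, 64 of 84. The highest 25% of all open genes held 35 members (41.7%) in replicate 1 and 38 (45.2%) in replicate 2. The highest 10% held 10 (11.9%) and 17 (20.2%). Few lay at the bottom: 82 of 84 exceeded the lower quartile of all open genes, 1.53 and 1.77, in each library, where 75% do by definition. Among the 72 cytosolic ribosomal protein genes, another group of housekeeping genes, 69 were open in both libraries, with median heights of 4.49 and 5.02.

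**Figure D2:**
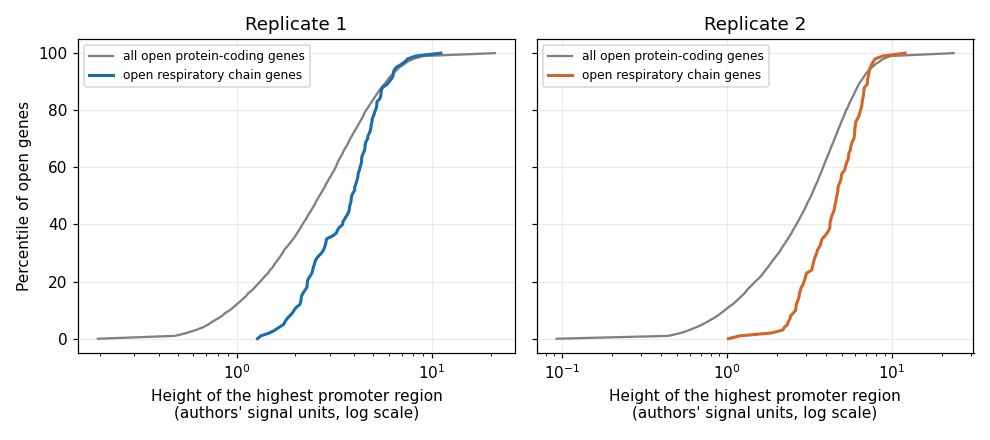
Percentile of open genes (vertical axis) against height of the highest promoter region (horizontal axis, the authors' signal units on a log scale) in each library, for the open respiratory chain genes (coloured) and all open autosomal protein-coding genes (grey). The coloured curve begins at 1.28 in replicate 1 and 1.02 in replicate 2, and its median lies to the right of the grey one in both.

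The highest promoter was that of Ndufaf8, an assembly factor of complex I at chr11:120098928-120100705. Its region reached 11.1 and 12.0 in replicates 1 and 2, above 99.9% of all regions of each list. By mean rank over both libraries, Atp5b, the catalytic beta subunit of ATP synthase, followed with 7.69 and 7.25, and Ndufa8, an accessory subunit of complex I, with 6.59 and 7.13. Cox6a1, the broad form of subunit VIa of complex IV, had 5.93 and 7.57, and Atp5g1, one of 3 genes for the membrane ring of ATP synthase, 7.42 and 6.73. Cox6c, another subunit of complex IV, had 5.57 and 7.43. In replicate 2 alone, the assembly factor Ndufaf4 (5.08 and 8.12) and the accessory subunit Ndufc1 (4.95 and 7.78) stood next to Ndufaf8. Ndufs1, the largest subunit of complex I, which carries iron-sulfur clusters, had 6.34 and 6.80. Ndufa13, an accessory subunit of complex I, had 7.11 and 7.10, but its highest region was centred at -762 bp and -752 bp from its start, beside the starts of Tssk6 and Yjefn3. The region nearest to the start of Ndufa13 itself had 0.905 and 1.02, so its place among the highest depends on the distance allowed.

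The promoters of Ndufaf8 (chr11:120098814-120098963, plus strand), Ndufa8 (chr2:36049309-36049458, minus strand), Sdha (chr13:74350211-74350360, minus strand) and Uqcrfs1 (chr13:30545287-30545436, minus strand) are shown to set footprints beside the sequence elements described further on. Capitals mark bases inside footprints of both libraries. Each runs 5′ to 3′ on the gene's strand from 120 bases before the RefSeq start through the first 30 bases of the transcript, on GRCm38.p6.
Ndufaf8: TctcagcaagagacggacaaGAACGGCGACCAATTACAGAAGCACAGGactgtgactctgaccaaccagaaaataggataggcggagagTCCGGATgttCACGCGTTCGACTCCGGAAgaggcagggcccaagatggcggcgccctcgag
Ndufa8: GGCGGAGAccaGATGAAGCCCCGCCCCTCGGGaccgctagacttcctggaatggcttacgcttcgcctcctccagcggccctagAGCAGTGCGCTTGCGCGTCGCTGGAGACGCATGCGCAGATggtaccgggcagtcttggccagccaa
Sdha: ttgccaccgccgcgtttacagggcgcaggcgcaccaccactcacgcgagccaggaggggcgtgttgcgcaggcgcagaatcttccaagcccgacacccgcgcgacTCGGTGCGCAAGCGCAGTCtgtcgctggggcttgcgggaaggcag
Uqcrfs1: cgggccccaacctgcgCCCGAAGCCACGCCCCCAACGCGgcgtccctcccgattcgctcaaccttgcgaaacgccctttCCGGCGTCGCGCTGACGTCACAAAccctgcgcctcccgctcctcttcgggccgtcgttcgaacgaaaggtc

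Within complex I, the entry point for electrons from NADH, all 7 nuclear core subunits, which hold the flavin and the iron-sulfur clusters, were open. Their median height was 4.88 in replicate 1 and 4.93 in replicate 2, with a range of 1.95 to 6.34 and 2.44 to 6.80. Ndufs1 was the highest of them and Ndufv2 the lowest in both libraries. Of 29 genes counted by symbol as accessory subunits, which surround the core, 28 were open, with medians of 4.37 and 5.35. They include Ndufa4, now assigned to complex IV, and its relative Ndufa4l2, the only closed gene among them. The lowest in replicate 1 was Ndufab1, the mitochondrial acyl carrier protein, at 1.54 and 2.35, and the lowest in replicate 2 was Ndufa5, at 2.01 and 2.33. Core and accessory subunits therefore spanned nearly the same range. The 9 genes grouped as assembly factors, Atp5s among them, had medians of 4.25 and 5.23. Each was higher in replicate 2, as were 87.6% of all genes open in both libraries.

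The 4 subunits of complex II, succinate dehydrogenase, which also works in the citric acid cycle, lay close together. Sdha, the flavoprotein that oxidises succinate, had 4.46 and 5.71. Sdhb, the iron-sulfur subunit, had 3.68 and 4.22. The membrane anchors had 3.49 and 4.70 (Sdhc) and 3.59 and 3.76 (Sdhd). Sdha was the highest of the 4 in both libraries, and the order of the others changed between them.

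Complex III passes electrons from ubiquinol to cytochrome c, and its 8 genes had median heights of 3.28 and 4.11. Uqcrq, a small subunit, had 6.39 and 6.40 and was the highest in both libraries. Uqcrb, another small subunit, was the lowest, at 1.77 and 2.43. Uqcrfs1, the Rieske iron-sulfur protein, had 4.18 and 6.01, and the core proteins Uqcrc1 and Uqcrc2 had 3.28 and 5.94, and 1.82 and 2.99. These 3 differed more between the libraries than most members, by 0.52 to 0.86 on the log2 scale.

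Complex IV was the lowest of the complexes, with medians of 2.65 and 3.22 over its 12 open genes. Without the tissue-restricted isoforms, its 10 remaining genes were all open and had medians of 2.86 and 3.82, still below those of complexes I, II, III and V in both libraries. The lowest of them was Cox6b1 in replicate 1 (1.73 and 2.68) and Cox7c in replicate 2 (2.45 and 2.18), and the highest in both was Cox6a1. Differences between complexes were not tested, because genes are not replicates.

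Complex V had medians of 3.94 and 4.35 over 16 open genes. Atp5b was the highest in both libraries, followed by Atp5g1 in replicate 1 and in replicate 2 by Atp5mpl, a small membrane subunit with 5.48 and 7.11. Atp5l, a subunit of the membrane part, was the lowest in both at 2.14 and 2.17. The 3 genes that encode the same ring subunit differed widely. Atp5g1 had 7.42 and 6.73, Atp5g2 had 5.04 and 5.92, and Atp5g3 had 2.48 and 3.38, in the same order in both libraries with no overlap. Atp5a1, the alpha subunit that pairs with Atp5b in the catalytic head, had 2.54 and 3.28, below Atp5b in each library.

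Within 1000 bp of a start, the broad member of each of 6 isoform families was open, and each restricted relative was closed or lower. In 4 of 6 families the broad member was open in both libraries and no restricted relative in either: Cox4i, Cox6a, Cox8 and Ndufa4, the last of which is now assigned to complex IV and is counted by its name under complex I here. With a distance of 2500 bp in place of 1000 bp the count was 2, because regions near Cox6a2 and Ndufa4l2 then counted as theirs. The nearest region to Ndufa4l2 had 4.01 and 6.41, above the heights of Ndufa4 within 1000 bp. The nearest region to Cox6a2 had 1.19 and 1.47, below those of Cox6a1. Cox4i1 had 2.11 and 2.63, whereas Cox4i2, known from lung and from oxygen-sensing cells, was closed. Cox6a1 had 5.93 and 7.57 with 8 footprints in each library, whereas Cox6a2, the heart and muscle form (chr7:128205435-128206387), was closed. Cox8a had 4.12 and 3.94, whereas the muscle form Cox8b (chr7:140898945-140900446) and the testis form Cox8c were closed. Ndufa4 had 2.87 and 3.68, whereas its hypoxia-induced relative Ndufa4l2 was closed. Cox7b2, the testis relative of the X-linked Cox7b, which lies outside the autosomes considered, was closed as well.

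In the other 2 families the restricted member was open at a low height. Cox7a1, the heart and muscle form of subunit VIIa (chr7:30184144-30186078), had a single region over its start in each library, with heights of 1.28 and 1.02 and 6 and 3 footprints. It was the lowest of all 84 open members in both libraries. Its broad relative Cox7a2 had 2.84 and 3.70, and Cox7a2l, which joins complexes III and IV into supercomplexes, 2.30 and 2.74. Cox6b2, the testis form of subunit VIb (chr7:4751792-4753094), had 1.34 and 1.23 and was the next lowest in both, below Cox6b1 at 1.73 and 2.68. All 4 heights of Cox7a2 and Cox7a2l exceeded both of Cox7a1, and both heights of Cox6b1 exceeded both of Cox6b2. In bulk tissue a low height from few cells with an open site cannot be told apart from a weakly open site in many.

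Markers of the cells in which the restricted forms are best known differed by cell type. Of 6 genes of striated muscle and heart, Acta1, Actc1, Myh6 and Mb were closed in both libraries, Ckm was open at 2.02 and 3.21 and Myh7 at 1.04 and 1.21. All 5 testis markers were closed. Of 4 pericyte and mural cell markers, relevant to Ndufa4l2 and Cox4i2, Kcnj8 was open in both libraries (0.585 and 0.579), Rgs5 and Pdgfrb in replicate 1 alone and Abcc9 in neither, and in the longer lists 3 of the 4 were open in both libraries. The part of such cells in the values of Cox7a1 and Cox6b2 was not tested.

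**Figure D3:**
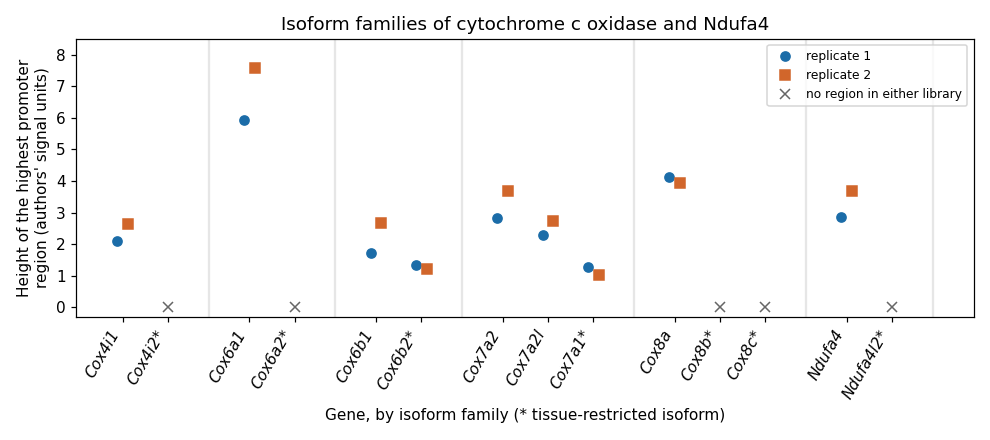
Height of the highest promoter region (vertical axis, the authors' signal units) for the members of 6 isoform families, with circles for replicate 1, squares for replicate 2, crosses for genes without a region (no call, drawn at 0) and asterisks for tissue-restricted forms. Only Cox6b2 and Cox7a1 among the 7 restricted forms had a region, and each lay below its broad relative.

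RefSeq promoter sequences were matched for 71 of the 91 loci, and among the isoform families not for Cox4i1, Cox4i2, Cox6a2, Cox8c or Ndufa4l2. The 3 pairs with a restricted form that have sequences are shown to set their promoters side by side, in the same format and with capitals where both libraries had a footprint. They are Cox7a2 (chr9:79759824-79759973, minus strand) and Cox7a1 (chr7:30184051-30184200, plus strand), Cox8a (chr19:7217587-7217736, minus strand) and Cox8b (chr7:140900417-140900566, minus strand), and Cox6b1 (chr7:30626085-30626234, minus strand) and Cox6b2 (chr7:4753065-4753214, minus strand).
Cox7a2: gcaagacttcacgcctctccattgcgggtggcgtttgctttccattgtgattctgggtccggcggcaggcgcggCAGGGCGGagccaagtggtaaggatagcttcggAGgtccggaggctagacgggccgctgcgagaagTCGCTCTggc
Cox7a1: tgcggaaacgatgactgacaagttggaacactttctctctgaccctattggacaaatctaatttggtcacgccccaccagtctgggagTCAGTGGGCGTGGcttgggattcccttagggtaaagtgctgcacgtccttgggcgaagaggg
Cox8a: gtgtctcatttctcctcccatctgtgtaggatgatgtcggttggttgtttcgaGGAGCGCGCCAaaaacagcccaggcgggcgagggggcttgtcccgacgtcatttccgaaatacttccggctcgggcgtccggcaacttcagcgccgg
Cox8b: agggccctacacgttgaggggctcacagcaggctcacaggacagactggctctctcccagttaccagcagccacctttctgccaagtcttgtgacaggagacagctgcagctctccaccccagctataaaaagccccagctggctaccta
Cox6b1: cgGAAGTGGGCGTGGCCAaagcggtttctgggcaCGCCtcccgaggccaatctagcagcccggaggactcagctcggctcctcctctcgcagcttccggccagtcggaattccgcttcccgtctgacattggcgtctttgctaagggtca
Cox6b2: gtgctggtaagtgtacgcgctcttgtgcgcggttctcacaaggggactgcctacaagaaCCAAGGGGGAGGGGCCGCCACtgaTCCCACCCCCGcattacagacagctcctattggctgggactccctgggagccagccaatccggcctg

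In each of these pairs the restricted form had fewer CpG dinucleotides in the 300 bases from 250 before the start on. Cox7a1 had 7 against 20 for Cox7a2, Cox8b had 2 against 19 for Cox8a, and Cox6b2 had 10 against 17 for Cox6b1. The median over the 69 open members with a sequence was 20, and over 9190 genes open in both libraries 22. Cox7b2 had 10. Within the shown stretch, 13 bases of Cox7a1 lay in footprints of both libraries, 32 of Cox6b2 and none of Cox8b, against 17 of Cox7a2, 20 of Cox6b1 and 11 of Cox8a. Cox8b carries the letters TATAAA at bases 4 to 9 after its annotated start, counted with the start base as 0.

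A region shared with a coding gene on the opposite strand was common among the members. Whether the genes of a pair point away from each other was not measured. For 33 of the 84 open members (39.3%) the highest region also lay within 1000 bp of the start of another protein-coding gene on the opposite strand, against 18.7% of all genes open in both libraries. Several partners work in the mitochondrion or in protein synthesis. The distances given are between the closest annotated starts of both genes, which can have several. Atp5j, a stalk subunit of ATP synthase, begins 31 bp from Gabpa, which encodes the DNA-binding subunit of nuclear respiratory factor 2, and the region over both had 2.43 and 2.92. Ndufb5 begins 20 bp from Mrpl47 and Ndufs6 29 bp from Mrpl36, both genes of the mitochondrial ribosome. Sdhd begins 98 bp from Timm8b, of the import machinery of the inner membrane. Ndufa7 begins 10 bp from Rps28, of the cytosolic ribosome, and Ndufs1 3 bp from Eef1b2, a translation elongation factor. Among the highest members, Ndufaf8 shared its region with Tepsin, Ndufa8 with Morn5 and Ndufa13 with Tssk6 and Yjefn3. In these cases the height cannot be assigned to either gene alone.

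The accessible stretch at the members was compact. Of the open members, 62 in replicate 1 (73.8%) and 60 in replicate 2 (71.4%) had a single region at their starts, against 49.9% and 43.5% of all open genes and 71.0% and 65.2% of the open ribosomal protein genes. The regions of a member covered a median of 240 and 260 bases, against 340 and 436. The members had a median of 4 annotated starts and all genes open in both libraries 5, a difference that was not adjusted for. A start lay inside a region in both libraries for 77 of 84 members (91.7%), against 78.7% of all open genes. The centre of the highest region lay upstream of the nearest start in both libraries for 59 members (70.2%, against 63.8%). At 9 members (10.7%, against 24.5% of all genes open in both libraries) the highest region was not the one nearest to a start in at least 1 library. These were Atp5a1, Atp5d, Atp5l, Cox7a2l, Ndufa11, Ndufa13, Ndufs8, Uqcr10 and Uqcrh.

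No open member was without a footprint in either library, but such genes were rare among all open genes too (0.766% in replicate 1 and 0.500% in replicate 2). The median was 5 per member in both libraries (mean 5 ± 0, SD, n = 2), against 5 and 6 over all open genes, but in fewer bases: footprints covered a median of 24.7% and 25.0% of the region bases of a member, against 19.1% and 18.9%. The ribosomal protein genes had similar values, 26.2% and 26.8%. Most recurred. Of 458 footprints at members in replicate 1, 72.5% overlapped one of replicate 2, and of 503 in replicate 2, 64.8% overlapped one of replicate 1, against 67.0% and 52.9% over all genes open in both. Members were also higher than all open genes, and footprint cover and recurrence were not compared at matched height or start position.

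The members with most footprints had several regions. Atp5d, the delta subunit of the stalk of ATP synthase, had 9 in replicate 1 and 37 in replicate 2, with 2 and 7 regions and a height of 3.86 and 4.21. Its highest region also lies beside the start of Cbarp. Atp5j had 14 and 9, Ndufa13 had 17 and 6, Uqcrh, the hinge protein of complex III, 11 and 12, and Ndufa11, an accessory subunit of complex I, 10 and 11. Only at Uqcrh and Ndufa11 among these 5 did the counts of the libraries lie within 1 of each other. Ndufb7 and Ndufb9, also accessory subunits of complex I, had 2 and 4, and 3 and 3 regions.

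Footprints gathered just upstream of the start. Over the 50 bases before the start, a base lay in a footprint at a mean of 37.6% of members in replicate 1 and 39.4% in replicate 2, against 25.7% and 28.3% of all genes open in both libraries. The highest share was 42.9% at position -16 in replicate 1 and 47.6% at position -25 in replicate 2. Farther than 100 and up to 200 bases before the start the shares were 13.8% and 16.0%, against 14.2% and 17.4%. From 51 to 100 bases after it they were 20.4% and 23.1%, against 11.6% and 15.6%. These shares were not matched for height or for the position of regions relative to the start.

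**Figure D4:**
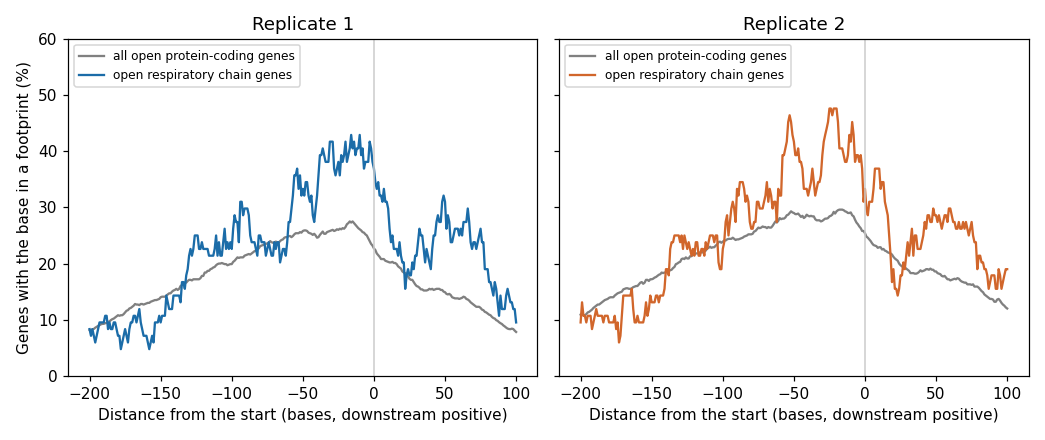
Share of genes (vertical axis, percent) whose base at a given distance from the start (horizontal axis, in bases, downstream positive) lay in a footprint, for the 84 open respiratory chain genes (coloured) and the 12586 autosomal genes open in both libraries (grey), in each library. The coloured curves reach 42.9% and 47.6% just before the start, and the grey ones 27.5% and 29.6%.

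Promoter letters were searched on both strands for 9 motifs, in 1 window per gene from 250 bases before to 50 after the RefSeq start nearest to its highest region in replicate 1. Nuclear respiratory factor 1, an activator of many respiratory genes, binds a near-palindrome, searched as GCGCA, any base, and GCGC. It occurred in 18 of 69 member windows (26.1%), against 11.9% of 9190 windows of genes open in both libraries. These were Atp5g2, Atp5g3, Atp5h, Atp5k, Atp5o, Cox6a1, Ndufa5, Ndufa6, Ndufa8, Ndufa11, Ndufaf4, Ndufaf5, Ndufb4, Ndufs5, Ndufs6, Sdha, Sdhd and Uqcrc1. Of their 24 matches, 19 (79.2%) overlapped a footprint in replicate 1 and 21 (87.5%) in replicate 2, against 83.1% and 86.0% of the matches at all genes. Ndufb4 held 3 matches, all in footprints of both libraries. Sdha held 3 as well, and in the sequence shown only the one from -10 to -1, just before the start, lay in footprints of both, while those from -98 and from -55 lay in one in replicate 2 alone. In Ndufa8 the match from -30 to -21 lies inside the longest run of capitals.

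YY1 often binds just inside the transcript, and its motif, searched as AAGATGGC directly followed by GGC, occurred in 5 member windows (7.25%, against 1.75%): Ndufa9, Ndufaf8, Ndufs4, Ndufs6 and Ndufs7. All 5 belong to complex I or its assembly, which account for 31 and 7 of the 69 windows, and all 5 matches began between 10 and 35 bases after the start. The core AAGATGGC alone, which every longer match contains, occurred in 10 (14.5%, against 4.92%), and 5 and 6 of those 10 matches overlapped a footprint in replicates 1 and 2, against 41.8% and 49.3% of the matches at all genes. In Ndufaf8 the match from 10 to 20, visible in lower case near the end of its sequence, overlapped a footprint in replicate 2 alone.

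The ETS motif CCGGAAGT, bound by nuclear respiratory factor 2 among others, occurred in 5 windows (7.25%, against 9.22%): Atp5h, Cox8a, Ndufs3, Uqcr11 and Uqcrh. The ZNF143 motif ACTACAA occurred in 8 (11.6%, against 4.62%), and the NFY motif GCCAAT in 18 (26.1%, against 21.3%). The SP motif GGGGCGGGG occurred in 11 (15.9%, against 24.1%), the cyclic AMP response element TGACGTCA in 4 (5.80%, against 3.79%) and TATAAA in 5 (7.25%, against 5.84%). The cyclic AMP response elements of Ndufa10, Ndufb2 and Uqcrfs1 overlapped footprints in both libraries and that of Ndufa11 in neither, so that 75.0% did in each, against 87.5% and 89.2% of the matches at all genes. The element of Uqcrfs1, from -29 to -22, stands inside its run of capitals nearest to the start. At least 1 of the NRF1, ETS and YY1 core motifs was present in 31 of 69 windows (44.9%), against 23.9%. Member windows were slightly less rich in G and C than those of all open genes, with a median of 58.3% against 62.0%. A match is a description of the letters and not evidence of binding.

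**Figure D5:**
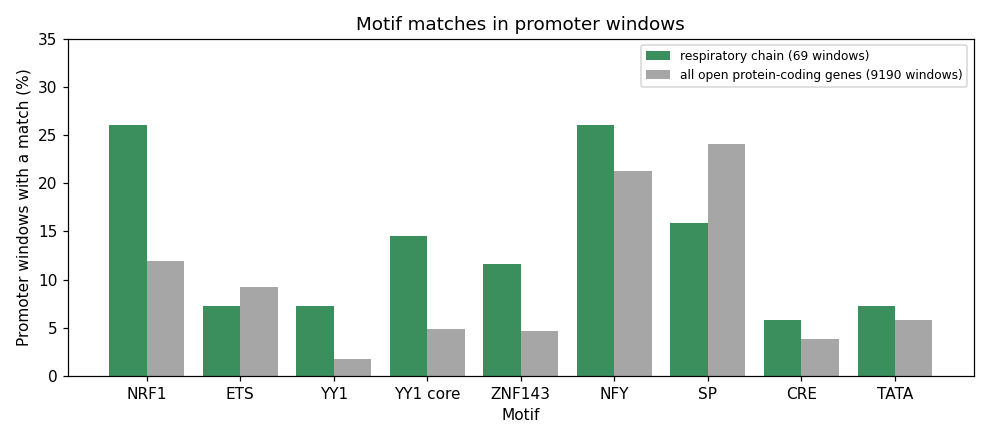
Share of promoter windows (vertical axis, percent) that hold each motif (horizontal axis) on either strand, for 69 respiratory chain genes (green) and 9190 genes open in both libraries (grey). The NRF1 bars stand at 26.1% and 11.9%, and the SP bars at 15.9% and 24.1%.

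Heights at the members followed each other between the libraries. Across the 84 open members, log2 heights correlated between libraries with Pearson's r at 0.920 and Spearman's rho at 0.914, given as a description over genes that share the same pair of libraries, and over all genes open in both the values were 0.956 and 0.957. The highest regions of the libraries overlapped at 83 of 84 members (98.8%, near the 95.7% of all genes open in both), the exception being Uqcr10. Members were higher in replicate 2 by a median of 0.28 on the log2 scale, near the 0.32 of all genes, and 71 of 84 (84.5%) were higher there, against 87.6%. The largest differences toward replicate 2 were at Uqcrc1 (0.86), Ndufb6 (0.74), Ndufs5 (0.73), Uqcrc2 (0.72) and Ndufc2 (0.70). Among the 13 members that were not higher in replicate 2, the largest differences were at Cox7a1 (-0.32), Cox7c (-0.17), Atp5g1 (-0.14), Cox6b2 (-0.12) and Ndufs8 (-0.10). With 2 libraries of the same kind of sample, such a difference is a spread between replicates.

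Most other genes of the pathway were open too. Over all autosomal protein-coding genes, 60.8% were open in replicate 1, 65.3% in replicate 2 and 60.5% in both. The open ones had median heights of 2.65 and 3.23. Of 12 regulators of mitochondrial biogenesis, 12 were open in replicate 1 and 11 in replicate 2, with median heights of 3.52 and 4.27. Nrf1 had 2.65 and 4.27, Gabpa 2.43 and 2.92, Yy1 4.61 and 5.51, and Tfam, which packages and transcribes mitochondrial DNA, 3.82 and 4.64. The region of Gabpa is the one it shares with the member Atp5j, so its height cannot be assigned to either gene alone. Esrra, an orphan nuclear receptor that acts with the PGC-1 coactivators, was the highest, at 8.07 and 7.58. Ppargc1a, the inducible coactivator PGC-1 alpha, was the lowest: its region of 0.691 was in the shorter list of replicate 1 alone, and the longer list of replicate 2 gave 0.705. Of 24 assembly factors of complexes II to V, 23 were open in both libraries, the exception being Sdhaf1, which serves complex II and was closed in both, and all 6 further assembly factors of complex I were open. Cycs, the somatic cytochrome c that carries electrons from complex III to complex IV, had 6.48 and 6.95, whereas its testis form Cyct was closed in both libraries. Of the testis forms among the members, Cox8c and Cox7b2 were closed as well and Cox6b2 was open.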

How the data were processed

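Members, gene lists, isoform families and motifs were chosen with earlier results of these data known. Assembly mm10 is stated per the labels, and both region lists of each library were derived by the authors from its own filtered alignments, per the deposited notes. No source used here names the caller, its version or its thresholds, or says how reads of the CAST/EiJ alleles aligned. Region heights are a signal that the authors deposited per region, used here to describe and rank within a list. Footprints carry a p-value of 0.01 in every row of the deposited lists, taken as the authors' cut-off, and the deposited per-base false discovery rates were used as listed.

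Positions are 1-based on GRCm38 (mm10), with starts from GENCODE M21. Footprints and regions were joined at 1 bp of overlap with Python 3.11.15, numpy 2.4.6, scipy 1.17.1 and bedtools 2.31.1. Promoter sequences are RefSeq, GRCm38.p6. The code was tested on simulated regions at known genes. Named genes are the isoform families, the Sdh genes, the 8 highest and 5 lowest members, those without a region, and those with most regions, footprints, difference between libraries or a shared region. Genes outside that rule serve as examples of a complex, a motif or a partner and were chosen after their values were seen. Alternatives were the longer list, distances of 500 and 2500 bp, the outermost start, the stronger 50% of regions, equal numbers of regions, other summaries of height and footprints, and each replicate on its own.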

Additional observations from a re-analysis of the deposited data

How the results depend on the processing

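The number of members open in both libraries was 84, and it lay between 82 and 86 under every alternative run. The share of all genes that were open lay between 52.2% and 65.7%. Starts limited to the outermost one left out Atp5d and Cox7a2l, the stronger 50% of regions left out Cox7a1, and a distance of 2500 bp added Cox6a2 and Ndufa4l2. At 2500 bp the families with the broad member alone open therefore numbered 2 in place of 4. The median height, a mean of 4.25 over the libraries, was 4.79 with the heights of all regions of a gene summed, and it corresponded to a percentile of 93.4 among all regions. Over all open protein-coding genes the median percentile was 84.7 in replicate 1 and 86.9 in replicate 2. For the ribosomal protein genes it was 94.9 and 95.3. Footprints per promoter, 5 in the libraries' mean, became 6 within 250 bp of any start, and covered 24.8% of region bases. The NRF1 count was 19 of 69 with any promoter window of a gene, against 12.4% of all open genes, an alternative chosen after seeing the data. Without replicate 1 or 2 the median heights were 4.63 and 3.88. No paired analysis was possible because the study has 1 group. How depth limits the heights could not be assessed, since read numbers are unknown here.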
